A study of Mus musculus with 10 samples.

Results

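T cells and natural killer (NK) cells were followed through 10 of their genes, Cd3d, Cd3e, Cd3g, Cd4, Cd8a, Nkg7, Ccl5, Gzma, Klrd1 and Il2rb, out of 35705 genes that received a value. The genes were taken by symbol from a table of transcript abundance in TPM, a unit of relative abundance that allows for transcript length and gives every library the same total. TPM was summed over the transcripts of each gene. The libraries were made from total RNA of medial knee cartilage caps, 1 mouse to a library, from 5 wild-type control mice and 5 Mir324-null mice, which lack the microRNA gene Mir324. Age, sex, litter and sequencing batch are not given in the sources used here, and no other allele or treatment is named. Mir324 itself was not analysed here.

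T cells recognise peptides with a receptor of paired alpha and beta chains, which have almost no cytoplasmic part of their own. The CD3 gamma, delta and epsilon chains, made by Cd3g, Cd3d and Cd3e, assemble with the receptor and carry its signal, and CD4 or CD8 binds the MHC molecule beside it. NK cells lack this receptor and instead read surface ligands through receptors such as the CD94 protein made by Klrd1. Cytotoxic T cells and NK cells share a killing programme that includes granzyme A (Gzma), the granule membrane protein NKG7, the chemokine CCL5 and the interleukin receptor chain CD122 (Il2rb). Articular cartilage has no blood vessels and normally holds few lymphocytes, whereas the marrow beneath it holds both T and NK cells.

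The absent microRNA has a pair of mature strands, which recognise messenger RNAs mainly through their seed, the second to eighth base. Both strands are shown, from RefSeq on GRCm38.p6, because a search of the members' 3′ untranslated regions (UTRs) used these letters. The capitals mark the seed, bases 2 to 8, and the strands lie at chr11:70012060-70012082 and chr11:70012095-70012114 on the plus strand.

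miR-324-5p: cGCAUCCCcuagggcauuggugu

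miR-324-3p: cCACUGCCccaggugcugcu

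In the longest annotated 3′ UTR of the 10 genes, the 7 bases that pair with the 5p seed, GGGATGC, occurred in 1 gene, Ccl5. The 7 bases that pair with the 3p seed, GGCAGTG, occurred in 2 genes, Cd3d and Cd4. Among all 12598 tested genes with a 3′ UTR, 8.50% held the first and 15.4% the second. The 3 stretches are shown in transcript direction with the matching bases in capitals. They begin their match at base 72 of 199 in Ccl5, base 719 of 995 in Cd3d and base 303 of 1553 in Cd4.

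Ccl5: tagccagcttgGGGATGCcactcagtaat

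Cd3d: caggtgtttctGGCAGTGttgcctgactc

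Cd4: ttggatcaaagGGCAGTGtatagcacctg

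A match describes letters only. The 3 genes that hold one had log2 changes of -0.41 (Ccl5), -0.08 (Cd3d) and 0.27 (Cd4) in null against wild-type libraries, and none of these passed the test described with each gene. These are changes of gene totals. The Cd3d match lies in the coding transcript Cd3d-201, a median of 25.1% of the Cd3d total. On protein-coding transcripts alone the Cd3d change was -0.24.

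The labels name the tissue articular cartilage and the cell type chondrocyte. Of 9 chondrocyte markers, Matn3 and Col9a1 had a mean under 1 TPM, and Matn3 was at 0 in a library. The summed erythroid markers were far higher than the summed chondrocyte markers. They ranged from 75176 to 133319 TPM in the wild-type group and from 107157 to 176398 TPM in the null group. The chondrocyte sums ranged from 1929 to 6145 and from 1627 to 2917 TPM. Averaged over the libraries, the summed neutrophil markers (77826 TPM) were also above the chondrocyte ones (2830 TPM). The platelet (1783 TPM), macrophage and dendritic cell (1719 TPM) and B lineage (349 TPM) sums were below them. With limma, no marker passed an adjusted p of 0.05 between genotypes. At an unadjusted p under 0.05, 5 of 7 tested chondrocyte and 7 of 8 osteoblast and osteocyte markers were lower in null libraries. So were 3 of 7 B lineage markers, against 7.3% of all genes. Of the erythroid and platelet markers, 5 of 6 and 5 of 5 were higher, against 4.28% of all genes. Over all genes, 592 higher and 1011 lower calls became 1216 and 577 after rescaling without the haemoglobin genes. The marker counts were not repeated there. The summed B lineage markers spanned 357 to 467 TPM across wild-type mice and 199 to 423 TPM across null mice. Wild-type replicate 1 stood apart, with the highest value of the 10 libraries for 33.6% of the 13841 genes tested. The part of these differences in the results that follow was not tested. In such bulk samples, fewer cells of a type and less RNA per cell cannot be told apart.

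All 10 lymphocyte genes were above 0 in every library and passed the filter, a mean over the libraries of 1 TPM or more. Nkg7 was the most abundant at 92.8 ± 24.4 TPM (mean ± SD, n = 10), followed by Ccl5 at 40.9 ± 35.1 TPM and Cd4 at 12.6 ± 5.46 TPM. Then came Cd3d at 8.68 ± 2.24, Il2rb at 7.24 ± 1.38, Klrd1 at 6.83 ± 3.33, Gzma at 6.20 ± 2.97 and Cd3g at 6.14 ± 2.04 TPM. Cd3e at 2.93 ± 1.22 TPM and Cd8a at 1.67 ± 0.644 TPM were lowest. Each gene was compared with its neighbour in this order by an exact sign-flip permutation test over the 10 libraries, two-sided, with Benjamini-Hochberg adjustment over 9 pairs. The order came from the same libraries, which these p-values do not allow for. The test used log2(TPM + 1), on which Gzma was below Cd3g (mean difference -0.04, higher in 4 of 10 libraries). Nkg7 exceeded Ccl5, Ccl5 exceeded Cd4, Cd3g exceeded Cd3e and Cd3e exceeded Cd8a, each with an exact adjusted p of 0.00879. The first and second of these held in 9 of 10 libraries, the other 2 in 10 of 10. From Cd4 down to Cd3g, neighbours did not differ beyond their spread, with exact adjusted p between 0.116 and 0.838. The order is that of gene totals. On protein-coding transcripts alone, Cd3d averaged 3.67 TPM and Klrd1 3.86 TPM, below Cd3g at 6.12 TPM. The coefficient of variation over all libraries was smallest for Il2rb, at 19.1%, and largest for Ccl5, at 85.9%.

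**Figure D1:**
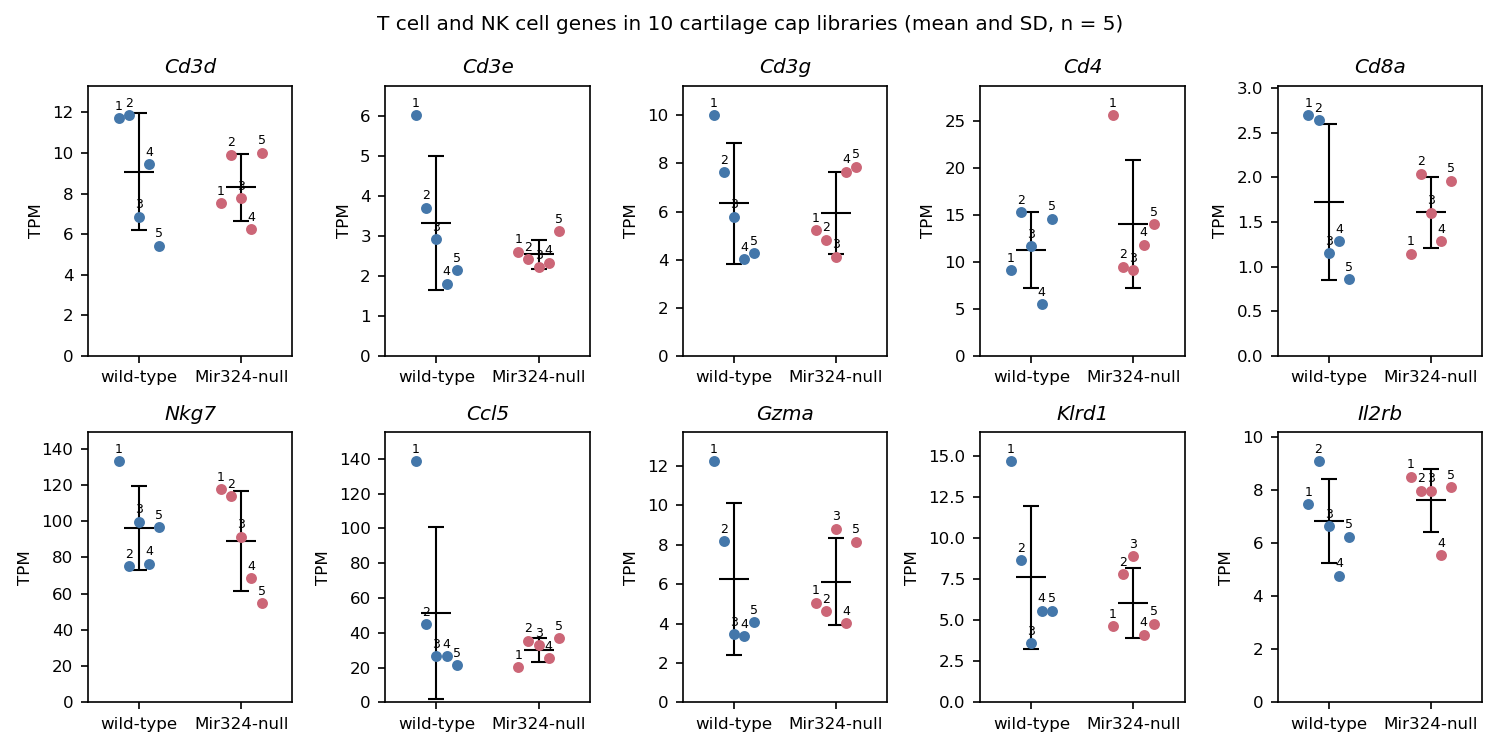
TPM (linear axis, from 0) of each gene in each library, with wild-type libraries in blue and Mir324-null libraries in red, numbered by replicate. Horizontal bars give the mean and SD of 5 libraries. Wild-type replicate 1 is the highest point in 7 of the 10 panels, and the genotypes overlap in every panel.

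The genotype comparison asked whether loss of Mir324 was accompanied by another level of lymphocyte transcripts in the joint. None of the 10 genes passed an adjusted p of 0.05 with limma on log2(TPM + 1), against 0% of all 13841 genes tested. None had an unadjusted p under 0.05, against 11.6% of all genes (4.28% higher and 7.3% lower in null libraries), and in none were the genotypes free of overlap, against 1.94% of all genes. The estimate was above 0 in 3 of 10 genes, against 40% of all genes. The median log2 change of the 10 genes was -0.07, beside -0.05 over all genes tested. Neither the count nor the sign of the median was stable: 8 of 10 estimates were above 0 and the median was 0.07 without wild-type replicate 1. The median was also above 0, at 0.02, without wild-type replicate 2 and after rescaling the libraries without the haemoglobin genes. For each gene, group means were also compared, 5 libraries against 5, by an exact permutation test (two-sided), whose smallest p is 0.00794. A p that misses a threshold does not show equal levels, so each change is given with its 95% confidence interval.

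**Figure D2:**
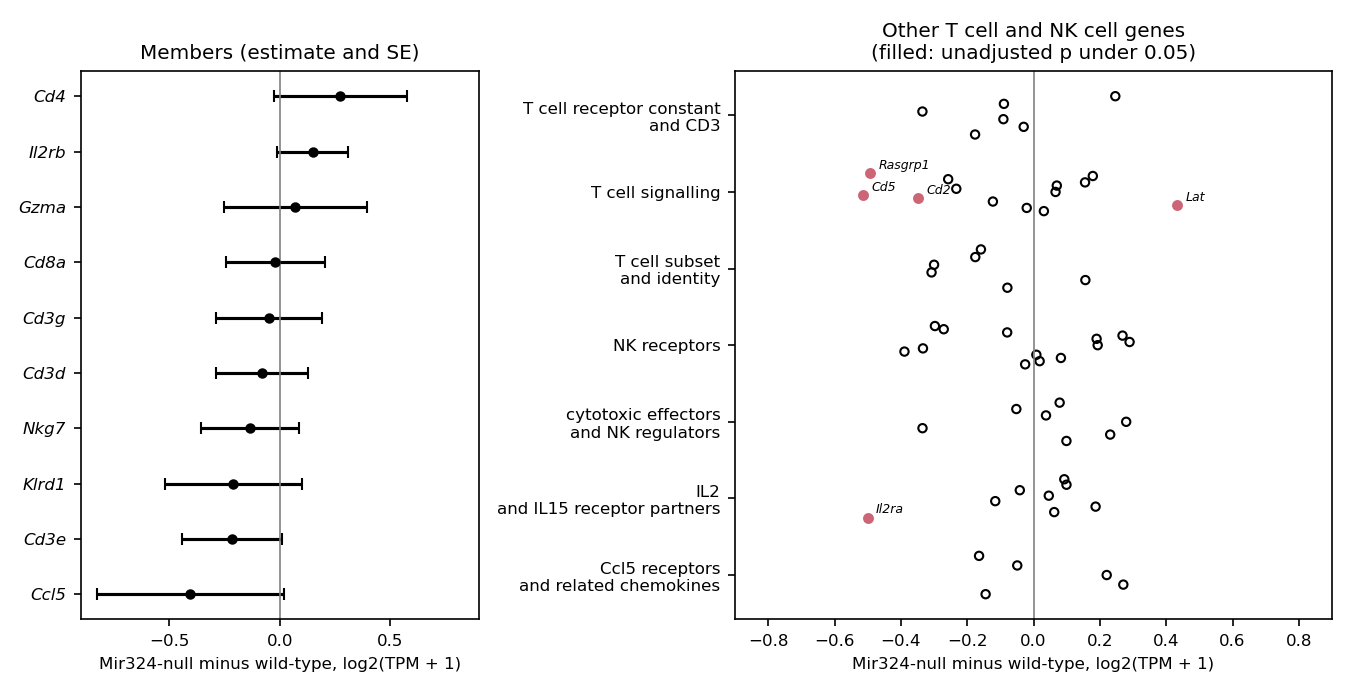
Left, log2 change (null minus wild-type, log2(TPM + 1)) of the 10 genes with its standard error, ordered by size, from Cd4 at 0.27 to Ccl5 at -0.41. Right, the same change for the 58 other T cell and NK cell genes tested, by list, with the 5 genes of unadjusted p under 0.05 filled and named.

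The CD3 chains are encoded together on chromosome 9. Cd3g (ENSMUSG00000002033, chr9:44969572-44980431, minus strand, GRCm38) and Cd3d (ENSMUSG00000032094, chr9:44981786-44987339, plus strand) start 1355 bases apart and run in opposite directions. Cd3e (ENSMUSG00000032093, chr9:44998740-45009627, minus strand) ends 11401 bases beyond the end of Cd3d. Their promoters, 250 bases before to 50 bases after the start from RefSeq on GRCm38.p6, are shown because the 3 genes serve a single complex and 2 of them varied together between mice. The capitals mark CACCTG, the E-box form bound by E proteins, and AGGAAG, a core bound by ETS factors, each on either strand. These letters were chosen after the sequences had been read, and the motifs do not overlap.

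Cd3g, chr9:44980382-44980681, minus strand: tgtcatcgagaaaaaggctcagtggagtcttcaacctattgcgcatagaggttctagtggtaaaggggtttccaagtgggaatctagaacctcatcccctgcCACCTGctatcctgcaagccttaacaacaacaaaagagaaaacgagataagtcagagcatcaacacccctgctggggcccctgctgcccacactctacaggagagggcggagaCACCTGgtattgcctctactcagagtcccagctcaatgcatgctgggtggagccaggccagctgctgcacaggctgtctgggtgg

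Cd3d, chr9:44981536-44981835, plus strand: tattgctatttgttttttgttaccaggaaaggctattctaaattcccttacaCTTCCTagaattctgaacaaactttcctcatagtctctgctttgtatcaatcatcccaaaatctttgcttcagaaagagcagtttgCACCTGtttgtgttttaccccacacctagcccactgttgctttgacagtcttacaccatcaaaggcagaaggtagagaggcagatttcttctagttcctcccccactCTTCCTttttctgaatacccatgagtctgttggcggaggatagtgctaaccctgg

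Cd3e, chr9:45009562-45009861, minus strand: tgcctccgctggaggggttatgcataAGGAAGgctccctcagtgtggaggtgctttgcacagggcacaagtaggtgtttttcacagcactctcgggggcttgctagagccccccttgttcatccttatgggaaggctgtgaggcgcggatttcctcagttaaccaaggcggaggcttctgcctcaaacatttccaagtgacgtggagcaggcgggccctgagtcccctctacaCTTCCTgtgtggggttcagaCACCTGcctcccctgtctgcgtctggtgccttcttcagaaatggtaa

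CACCTG was present in all 3 of these windows and in 4 of the 6 members' promoters with an entry, the fourth being Gzma. It was present in 20.2% of 32851 promoters of the same length. AGGAAG was present in Cd3d and Cd3e but not in these letters in Cd3g, and in 35.4% of promoters. A match says nothing of a factor's binding.

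Cd3d measured 11.7, 11.9, 6.85, 9.44 and 5.43 TPM in wild-type replicates 1 to 5 and 7.52, 9.92, 7.78, 6.26 and 10.0 TPM in null replicates 1 to 5. The null values all lay within the wild-type range. The group means were 9.07 ± 2.88 and 8.30 ± 1.63 TPM (SD, n = 5 each), a log2 change of -0.08 (SE 0.207, 95% interval -0.53 to 0.37, adjusted p = 0.938 with limma, exact permutation p = 0.722). It was 0.02 when either wild-type replicate 1 or 2 was left out, and 0.00017 after rescaling the libraries without the haemoglobin genes.

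Cd3e, the chain whose cytoplasmic tail also binds adaptor proteins, measured 6.04, 3.71, 2.93, 1.81 and 2.15 TPM in wild-type and 2.61, 2.42, 2.22, 2.34 and 3.12 TPM in null replicates 1 to 5. Wild-type replicates 1 and 2 were above every null library, while wild-type replicates 4 and 5 were below all of them, so the null libraries were more alike than the wild-type ones. The means were 3.33 ± 1.68 and 2.54 ± 0.353 TPM, and 0 of 5 null libraries exceeded the wild-type mean. The log2 change was -0.21 (SE 0.227, 95% interval -0.71 to 0.28, adjusted p = 0.794 with limma, exact permutation p = 0.452). Without wild-type replicate 1 it was -0.02.

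Cd3g measured 10.0, 7.64, 5.79, 4.01 and 4.26 TPM in wild-type and 5.23, 4.84, 4.13, 7.66 and 7.86 TPM in null replicates 1 to 5. Wild-type replicate 1 was highest and the 2 next highest were null libraries. The means of 6.34 ± 2.51 and 5.95 ± 1.71 TPM gave a log2 change of -0.05 (SE 0.239, 95% interval -0.57 to 0.47, adjusted p = 0.970 with limma, exact permutation p = 0.849). Without wild-type replicate 1 the change was 0.11, of the opposite sign, and it lay between 0.0028 and 0.03 under other scalings of the libraries.

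The coreceptors divide mature T cells into helper and cytotoxic classes, although CD4 is also found on some macrophages and dendritic cells. Cd4 (ENSMUSG00000023274, chr6:124864692-124888221, minus strand) measured 9.14, 15.3, 11.7, 5.49 and 14.6 TPM in wild-type and 25.6, 9.49, 9.14, 11.8 and 14 TPM in null replicates 1 to 5. Null replicate 1 was highest and wild-type replicate 4 lowest, and the other 8 libraries were intermixed. The means were 11.2 ± 4.03 and 14 ± 6.77 TPM, a log2 change of 0.27 (SE 0.301, 95% interval -0.38 to 0.93, adjusted p = 0.808 with limma, exact permutation p = 0.484). Without null replicate 1 the change was 0.04.

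Cd8a (ENSMUSG00000053977, chr6:71373427-71379173, plus strand), the alpha chain of CD8, measured 2.70, 2.64, 1.15, 1.29 and 0.857 TPM in wild-type and 1.14, 2.04, 1.6, 1.29 and 1.96 TPM in null replicates 1 to 5. The wild-type libraries split into replicates 1 and 2 above every null library and 3 lower ones. The means were 1.73 ± 0.875 and 1.61 ± 0.397 TPM, and the log2 change was -0.02 (SE 0.223, 95% interval -0.51 to 0.47, adjusted p = 0.986 with limma, exact permutation p = 0.905). It was 0.11 without wild-type replicate 1 and was above 0 under each of the other library scalings tried.

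The Cd4 to Cd8a ratio ran from 3.39 in wild-type replicate 1 to 22.4 in null replicate 1. It averaged 8.12 ± 5.62 for wild-type mice and 9.81 ± 7.23 for null mice (SD, n = 5 each), and the genotypes did not differ beyond their spread (exact permutation p = 0.643 on log2 ratios).

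Among the genes of the killing programme, Nkg7 (ENSMUSG00000004612, chr7:43437073-43438249, plus strand), whose protein sits in cytotoxic granule membranes, measured 133, 75.3, 99.8, 76.5 and 96.7 TPM in wild-type. In null replicates 1 to 5 it measured 118, 114, 91.5, 68.5 and 54.9 TPM. Each genotype held high and low libraries. The means were 96.3 ± 23.4 and 89.3 ± 27.5 TPM, a log2 change of -0.13 (SE 0.222, 95% interval -0.62 to 0.35, adjusted p = 0.890 with limma, exact permutation p = 0.627). When null replicate 5 was left out it was 0.02.

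Gzma (ENSMUSG00000023132, chr13:113093825-113100981, minus strand), a serine protease of cytotoxic granules, measured 12.2, 8.17, 3.48, 3.36 and 4.08 TPM in wild-type and 5.06, 4.62, 8.83, 4.01 and 8.17 TPM in null replicates 1 to 5. Wild-type replicate 1 had 2.21 times the mean of the other 9 libraries. The means were 6.26 ± 3.88 and 6.14 ± 2.20 TPM, and the log2 change was 0.07 (SE 0.324, 95% interval -0.64 to 0.78, adjusted p = 0.969 with limma, exact permutation p = 0.849). It ran from -0.08 without wild-type replicate 4 to 0.32 without wild-type replicate 1, and was below 0 without any 1 of wild-type replicates 3, 4 and 5 and null replicates 3 and 5, so its sign was not stable.

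Klrd1 (ENSMUSG00000030165, chr6:129591782-129598775, plus strand) encodes CD94, the partner of the NKG2 receptors. It measured 14.7, 8.67, 3.59, 5.57 and 5.58 TPM in wild-type and 4.64, 7.79, 8.91, 4.13 and 4.78 TPM in null replicates 1 to 5. Wild-type replicate 1 was again highest, at 2.46 times the mean of the others, and wild-type replicate 3 lowest. The means were 7.61 ± 4.34 and 6.05 ± 2.15 TPM, a log2 change of -0.21 (SE 0.309, 95% interval -0.88 to 0.47, adjusted p = 0.869 with limma, exact permutation p = 0.579), which became 0.04 without wild-type replicate 1.

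Ccl5 (ENSMUSG00000035042, chr11:83525778-83530518, minus strand) encodes a chemokine that attracts T cells, monocytes and eosinophils, and lies 13.5 Mb from Mir324. It measured 138, 44.9, 26.5, 26.5 and 21.4 TPM in wild-type and 20.3, 35.5, 32.8, 25.6 and 36.9 TPM in null replicates 1 to 5. Wild-type replicate 1 had 4.61 times the mean of the other 9 libraries, which lay together. The means of 51.5 ± 49.4 and 30.2 ± 7.04 TPM gave the largest log2 change of the 10 genes, -0.41 (SE 0.423, 95% interval -1.33 to 0.52, adjusted p = 0.791 with limma, exact permutation p = 0.548). Without wild-type replicate 1 it was 0.04, so that the sign of the change rested on that library.

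Il2rb (ENSMUSG00000068227, chr15:78479256-78495271, minus strand), the beta chain shared by the receptors for interleukins 2 and 15, measured 7.48, 9.09, 6.65, 4.78 and 6.25 TPM in wild-type. In null replicates 1 to 5 it measured 8.51, 7.99, 7.98, 5.55 and 8.11 TPM. Of the null libraries, 4 lay close together and replicate 4 below them. The means of 6.85 ± 1.59 and 7.63 ± 1.18 TPM gave a log2 change of 0.15 (SE 0.162, 95% interval -0.21 to 0.50, adjusted p = 0.806 with limma, exact permutation p = 0.389). This is the gene with the narrowest interval of the 10, although its change was 0.04 when wild-type replicate 4 was left out and was 0.24 when wild-type replicate 2 or null replicate 4 was.

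Around these genes, 78 other T cell and NK cell genes in 7 lists were examined, of which 58 passed the TPM filter. With limma 0 of 58 passed an adjusted p of 0.05, the smallest being 0.324, and 5 of 58, or 8.62%, had an unadjusted p under 0.05, beside 11.6% of all genes. The estimate was above 0 in 27 and below in 31, with a median log2 change of -0.03. None of the 6 T cell receptor constant and CD3-associated genes tested had an unadjusted p under 0.05. The most abundant of them, the receptor beta constant gene Trbc2, stood at 18.1 ± 9.20 TPM in the wild-type group and 15.5 ± 1.78 TPM in the null group, and the alpha constant gene Trac at 9.52 ± 3.87 and 7.93 ± 1.45 TPM.

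The signalling list held 4 of the 5 genes with an unadjusted p under 0.05, of 13 tested, where 11.6% of all genes had one. Lat, the scaffold that the activated receptor complex phosphorylates, was at 20.7 ± 2.77 TPM in the wild-type group and 28.4 ± 4.96 TPM in the null group (log2 change 0.43, SE 0.139, adjusted p = 0.324 with limma, exact permutation p = 0.0317). Platelets and their precursors also carry Lat, and 5 of 5 platelet markers were higher in null libraries at an unadjusted p under 0.05 (median log2 change 0.43), whose part in this difference was not tested. Cd5, a receptor that dampens T cell receptor signals and is also carried by some B cells, measured 3.17, 3.02, 1.40, 1.57 and 1.99 TPM in wild-type replicates 1 to 5 and 1.24, 1.38, 1.19, 1.22 and 1.0 TPM in null replicates. Every null value lay below every wild-type value, by a margin as small as 1.40 against 1.38 TPM (log2 change -0.51, SE 0.182, adjusted p = 0.342 with limma, exact permutation p = 0.00794). Cd5 was the 1 gene of the 58 whose genotypes did not overlap, where 1.94% of all genes tested did not. Rasgrp1, an exchange factor that activates Ras in T cells, was at 4.56 ± 0.593 and 3.0 ± 0.799 TPM (log2 change -0.49, adjusted p = 0.331 with limma), and the adhesion receptor Cd2 at 12.8 ± 2.49 and 9.75 ± 1.33 TPM (log2 change -0.35, adjusted p = 0.398 with limma). None of the 4 passed the adjusted threshold, and they did not point the same way. Fyb, the most abundant gene of the list and an adaptor also used by myeloid cells, was at 80.7 ± 13.4 and 91.3 ± 14.3 TPM.

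In the list of receptors and signal carriers for interleukins 2 and 15, Il2ra alone of 8 genes had an unadjusted p under 0.05. This alpha chain, which marks activated and regulatory T cells and early lymphoid precursors, was at 2.86 ± 0.415 TPM in the wild-type group and 1.76 ± 0.567 TPM in the null group (log2 change -0.50, SE 0.162, adjusted p = 0.324 with limma, exact permutation p = 0.0238). The common gamma chain Il2rg, which pairs with Il2rb, was at 27.5 ± 3.36 and 29.1 ± 5.60 TPM, and the kinase Jak1 at 63.6 ± 7.42 and 65.6 ± 5.61 TPM. B lineage markers, some of whose cells also carry Cd5 or Il2ra, were lower in null libraries as given above, and their part in these 2 differences was not tested.

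Of the subset and identity list, 0 of 6 tested genes had an unadjusted p under 0.05, with a median log2 change of -0.17. Thy1, a surface protein of T cells that stromal cells also carry, was at 17.4 ± 6.46 and 18.7 ± 3.60 TPM, and the interleukin-7 receptor chain Il7r at 10.6 ± 2.61 and 8.65 ± 3.05 TPM. The lineage regulators Gata3, Bcl11b and Foxp3 and the activation markers Ctla4, Icos and Cd40lg had a mean under 1 TPM and were not tested. Of the NK receptors, 0 of 13 had an unadjusted p under 0.05, and the median log2 change was 0.01. Slamf7 was at 14.9 ± 3.44 and 12 ± 2.97 TPM and the activating receptor Klrk1 at 7.25 ± 1.49 and 7.73 ± 1.36 TPM. Genes of the Klra family are near-identical to one another, so that the values of single members are uncertain. Of the cytotoxic effectors and NK regulators, 0 of 7 had an unadjusted p under 0.05, with a median of 0.08. Il18rap was at 19.9 ± 5.24 and 19.2 ± 4.80 TPM and Cd7 at 11.9 ± 2.45 and 12.6 ± 2.58 TPM. The interferon gene Ifng, the NK regulator Eomes and the death ligand Fasl had a mean under 1 TPM. Of the Ccl5 receptors and related chemokines, 0 of 5 had an unadjusted p under 0.05. Ccr1 was at 31.4 ± 9.48 and 27.7 ± 4.49 TPM and Ccr3, the receptor of eosinophils, at 9.24 ± 3.54 and 11.2 ± 3.20 TPM.

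Libraries of the same genotype also differed among themselves. Wild-type replicate 1 had the highest value for 7 of the 10 genes, namely Cd3e, Cd3g, Cd8a, Nkg7, Ccl5, Gzma and Klrd1, where 33.6% of all genes tested had their highest value in that library. Among the 78 other lymphocyte genes, 23 were highest there, no larger a share than that of all genes tested, although some of the 78 were not tested. Wild-type replicate 4 had the lowest value for 5 of the 10 genes, and the matching share of all genes was not computed. The elevation in wild-type replicate 1 was not shared by all 10 genes: Cd4 there had 0.703 times the mean of the other libraries and Il2rb 1.04 times. Gzmk, a granzyme of memory-like cytotoxic T cells picked out after its values were seen, was at 4.54 TPM in wild-type replicate 1 and between 0.0979 and 0.671 TPM elsewhere. The same library had the highest summed chondrocyte and osteoblast markers, at 6145 and 7961 TPM, and the lowest summed erythroid markers, at 75176 TPM. Whether these go together with its lymphocyte transcripts was not tested.

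**Figure D3:**
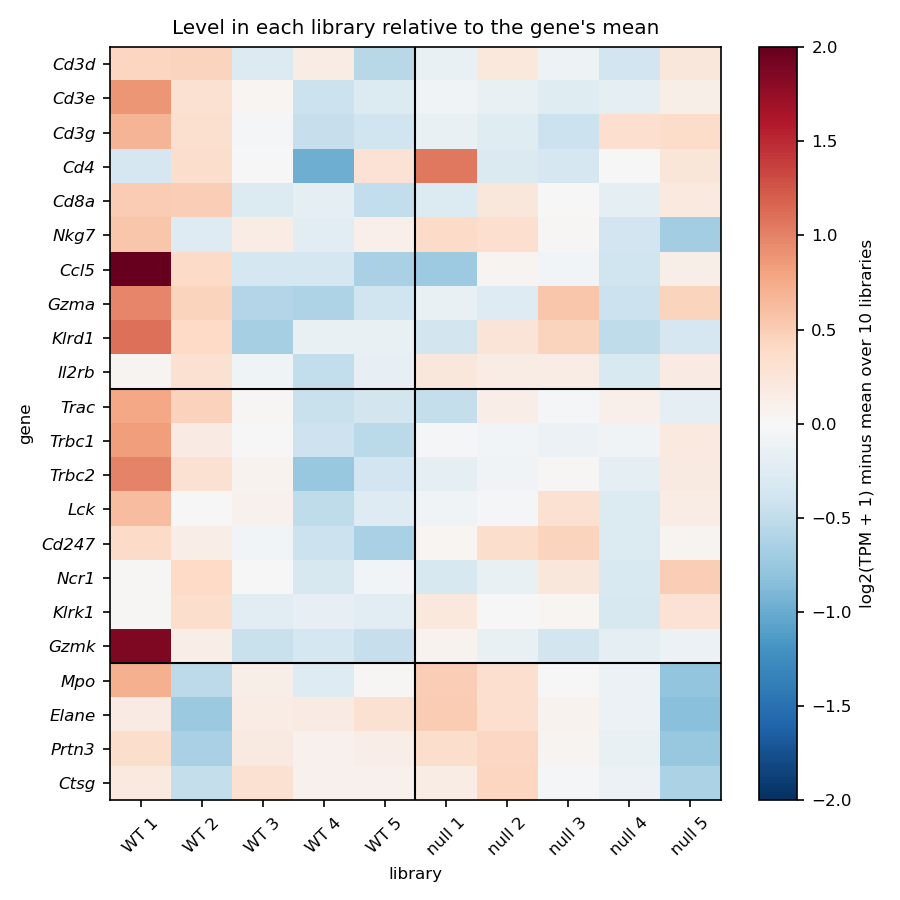
Level of each gene in each library as log2(TPM + 1) minus the gene's mean over the 10 libraries, red above and blue below the mean. The upper block holds the 10 genes, the middle block other T cell and NK cell genes, and the lower block 4 genes of neutrophil primary granules, whose pattern over the libraries resembles that of Nkg7 (r between 0.79 and 0.95).

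The genes were next compared by their pattern over the mice. Of the 45 pairs, 39 had a Pearson r above 0 on log2(TPM + 1), with a median of 0.47, and 13 had a permutation adjusted p under 0.05 (100000 resamples, two-sided, Benjamini-Hochberg over 45 pairs). By Spearman's rho 4 pairs passed, and without wild-type replicate 1 2 pairs passed. On deviations from the genotype means 13 passed. Cd8a and Ccl5 were one of the 2 pairs, with r = 0.83 (permutation p = 3e-05, adjusted 0.00135) and rho = 0.93 (permutation adjusted p = 0.0158). Their r was 0.93 without wild-type replicates 1 and 2, the libraries farthest from the median of Cd8a, and 0.96 without wild-type replicate 1 alone (permutation adjusted p = 0.00495). Cd3d and Cd8a were the other, with r = 0.91 (permutation adjusted p = 0.00967), rho = 0.87 (permutation adjusted p = 0.0343), 0.84 without the 2 farthest libraries and 0.89 without wild-type replicate 1 (permutation adjusted p = 0.0344). These correlations used gene totals and were not repeated on protein-coding transcripts. The coding share had a median of 39.3% for Cd3d and 92.3% for Cd8a, with a lowest value of 52.0% for Cd8a.

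Within the CD3 complex 1 of the 3 pairs passed the adjusted threshold, and whether the correlations of the pairs differ was not tested. Cd3e and Cd3g had r = 0.84 (permutation adjusted p = 0.0130) and rho = 0.84 (permutation adjusted p = 0.0393), with r = 0.71 without wild-type replicates 1 and 2, and 0.77 without wild-type replicate 1, where the permutation adjusted p was 0.181. Cd3d and Cd3g had r = 0.46 (permutation adjusted p = 0.336) and Cd3d and Cd3e r = 0.60 (permutation adjusted p = 0.146), and without wild-type replicate 1 none of the 3 pairs passed. The Cd3d total used here was mostly a short retained-intron transcript, Cd3d-203, at a median of 60.7%. The relation of Cd3e and Ccl5, r = 0.88, fell to 0.28 without wild-type replicates 1 and 2 and so rested on those libraries. In a family of 10 pairs chosen after earlier values were seen, Cd3e followed the receptor constant genes Trbc2 (r = 0.95, rho = 0.92, permutation adjusted p = 0.00033 and 0.00142) and Trbc1 (r = 0.94, rho = 0.98, permutation adjusted p = 0.00033 and 0.0003). Without the 2 farthest libraries these r were 0.86 and 0.84. With Trac r was 0.81 and fell to 0.29 without the same 2.

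Among all other tested genes, those most similar to the mean of the CD3 genes over the 10 libraries were Trbc1 (r = 0.94), the NK receptor gene Klrc1 (r = 0.93) and Zfp951 (r = 0.88). Those most similar to the mean of Nkg7, Gzma, Klrd1 and Il2rb were Letmd1, Parp4 and Msantd1, each with r = 0.96. As the highest r of a search over all tested genes, these values carry no p. The search was not repeated without wild-type replicate 1. Klrc1 encodes NKG2A, whose protein pairs with the CD94 made by Klrd1. On gene totals, Klrc1 and Klrd1 themselves had r = 0.34 and rho = 0.10 (permutation adjusted p = 0.353 and 0.785). Protein-coding transcripts made up a median of 59.2% of the Klrd1 total, and the pair was not repeated on them.

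No pair of Nkg7 with another of the 10 genes passed an adjusted p of 0.05. Its r with the CD3 genes, Gzma and Klrd1 lay between -0.12 and 0.43. Its TPM was 12.7 to 57.2 times that of the NK receptor gene Ncr1. Nkg7 did vary with the genes of the primary granules of immature neutrophils, Elane, Mpo, Prtn3 and Ctsg, a list added after the data had been examined. With their mean it had r = 0.89 (permutation p = 0.00024, adjusted 0.0216 over 90 pairs of a gene with a marker list) and rho = 0.94 (permutation adjusted p = 0.0198), and this was the one pair of the 90 that passed. The r was 0.81 without wild-type replicate 1 and null replicate 5, 0.90 without wild-type replicate 1 alone (permutation adjusted p = 0.0495) and 0.90 on deviations from the genotype means. Other genes were closer still. Among all other tested genes, BC024978 (r = 0.97), Cmtm7 (r = 0.96) and Myg1 (r = 0.96) were the most similar to Nkg7, in a search made after values were seen. With the planned neutrophil marker list, which holds Elane and Mpo, Nkg7 had r = 0.51 (permutation adjusted p = 0.610).

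With Mpo, which encodes myeloperoxidase, Nkg7 had r = 0.95 (permutation p = 5e-05, adjusted 0.00033 over the 10 chosen pairs) and rho = 0.96, and r = 0.88 without the 2 farthest libraries. Mpo measured 1454, 616, 960, 746 and 906 TPM in wild-type and 1251, 1120, 896, 815 and 512 TPM in null replicates 1 to 5. The ratio of Nkg7 to Mpo stayed between 0.0841 and 0.122 in the 10 libraries. With Ncr1, r was -0.40 (rho = -0.35, permutation adjusted p = 0.304 and 0.364). With the secondary granule genes Ngp, Camp and Ltf, of later neutrophils, r was 0.49 (permutation adjusted p = 0.656). Which cells the Nkg7 transcripts came from was not tested.

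**Figure D4:**
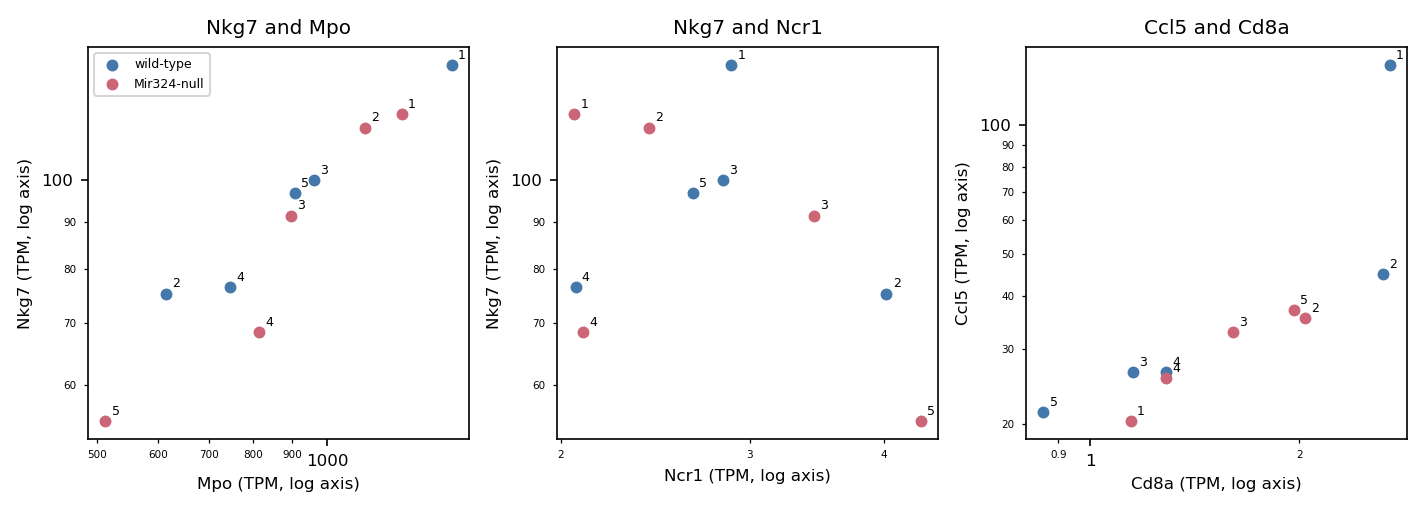
Pairs of genes over the 10 libraries, TPM on log axes, wild-type in blue and Mir324-null in red, numbered by replicate. Nkg7 rises with Mpo (r = 0.95 on log2(TPM + 1)) but not with the NK receptor gene Ncr1 (r = -0.40), and Ccl5 rises with Cd8a (r = 0.83), with wild-type replicate 1 at the top.

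The gene totals were divided unevenly among annotated transcripts. For Cd3e, Cd3g, Ccl5, Gzma and Il2rb at least 93.0% of the TPM in every library was on protein-coding transcripts. For Cd3d the median share was 39.3%, with a range from 18.9% to 100%. A retained-intron transcript of 299 bases, Cd3d-203, held 5.01 ± 2.55 TPM (SD, n = 10), while the full coding transcript of 1617 bases, Cd3d-201, held 2.33 ± 0.847 TPM. A second coding model of 286 bases, Cd3d-202, was at 5.76 TPM in wild-type replicate 2 and 6.58 TPM in null replicate 3 and at most 0.515 TPM elsewhere. Such short models receive a large TPM from few reads, and the reads behind them are unknown here.

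Klrd1 had a median coding share of 59.2%, from 36.1% to 98.3%. A single transcript annotated for nonsense-mediated decay held 2.10 ± 1.59 TPM. On coding transcripts alone Klrd1 stood at 4.62 ± 1.64 TPM in the wild-type group and 3.10 ± 0.75 TPM in the null group, a log2 change of -0.42 (adjusted p = 0.448 with limma, exact permutation p = 0.14). Nkg7 had a median coding share of 88.6%, and its retained-intron transcript held 39.3 TPM in wild-type replicate 1 and 24.9 TPM in null replicate 1. Cd8a had a median coding share of 92.3%. Of the Cd4 total in null replicate 1, 74.4% was coding, and its coding TPM there, 19.1, was still the highest of the 10. No gene passed an adjusted p of 0.05 with limma between genotypes when coding transcripts alone were summed, and the 10 estimates kept their signs. Their sizes moved most for Klrd1, from -0.21 on the gene total to -0.42 on coding transcripts. The next were Cd8a, from -0.02 to -0.21 (exact permutation p = 0.333), and Cd3d, from -0.08 to -0.24 (exact permutation p = 0.548).

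**Figure D5:**
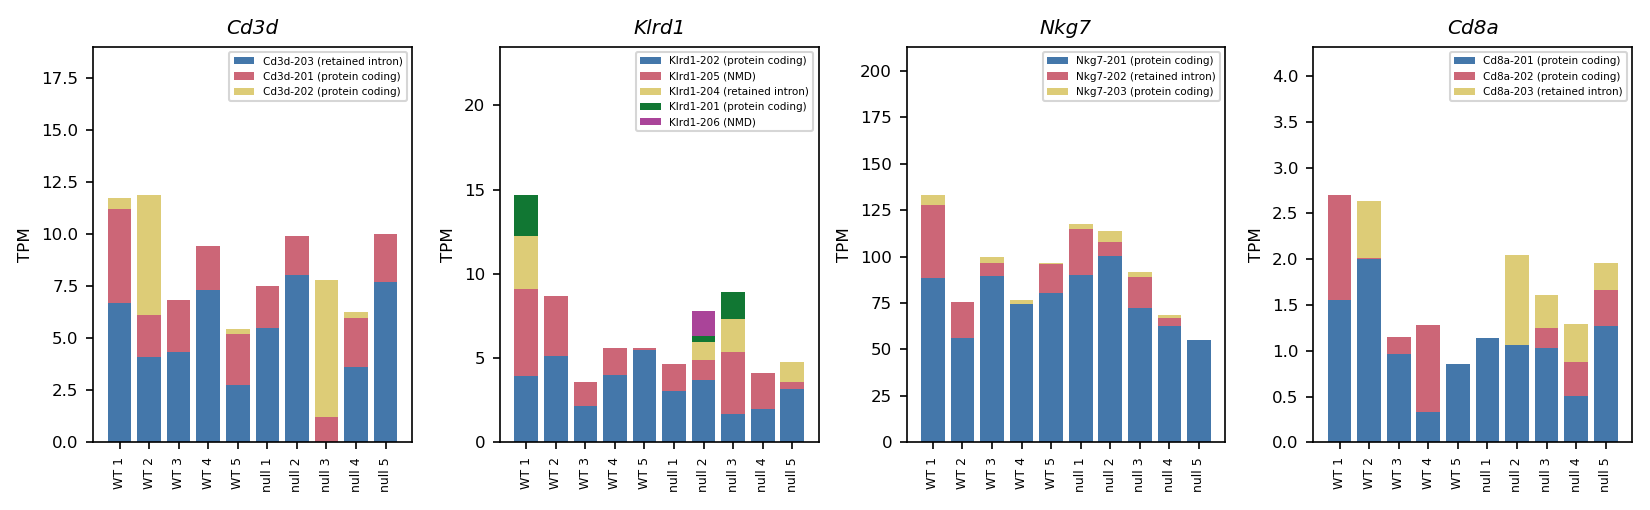
TPM of each annotated transcript, stacked to the gene total, in the 10 libraries for Cd3d, Klrd1, Nkg7 and Cd8a (NMD, nonsense-mediated decay). The retained-intron transcript Cd3d-203 makes up a median of 60.7% of Cd3d, and the coding transcript Nkg7-201 makes up most of Nkg7 in every library.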

How the data were processed

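Transcript abundance was measured in 10 knee cartilage libraries, 5 wild-type and 5 Mir324-null, grouped by the genotype in the labels. The authors deposited TPM values for 116912 Ensembl mouse transcripts, each column summing to 1000000. The submitters' processing notes name kallisto and DESeq2 without versions, and a GRCh38 build, although the identifiers are mouse. No counts were used, so depth is unknown and no counting interval was computed. Per the labels' protocols, libraries came from a low-input kit and total RNA.

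Identifiers without version were matched to GENCODE M21 (GRCm38). Of these, 115440 matched, and the 1472 others held at most 0.356% of a library. TPM was summed per gene, and genes averaging 1 TPM or more were fitted with limma 3.58.1 in R 4.3.3 (lmFit, eBayes with trend) on log2(TPM + 1), which understates changes of low genes, with Benjamini-Hochberg adjustment over all 13841 genes. The fit was tested on simulated data. Exact permutation tests and correlations ran in Python 3.11.15 with scipy 1.17.1. Libraries of single mice were the replicates. Replicate numbers did not pair the samples.

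The 10 genes and the gene lists were chosen with earlier results of these data known. Named are all 10 genes and, per other list, genes with an unadjusted p under 0.05 (at most 5), the 2 of highest mean, and the 3 most similar genes by r to each of 2 group means. Further genes, such as Gzmk, Ncr1, the granule genes, genes in chosen pairs and listed genes under 1 TPM, fall outside this rule and were chosen after values were seen. Alternatives tried were other pseudocounts, filters, scalings, coding transcripts, no trend, a replicate block and leaving out each library.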

Additional observations from a re-analysis of the deposited data

Results flagged for a closer look

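Dixon's ratio was computed in 56 groups of 5 libraries, and chance marks about 1 in 20 groups. It picked out 3 values. Ccl5 in wild-type replicate 1, at 138 TPM, lay far above the next wild-type value of 44.9 TPM, the gap being 0.799 of the group's range (critical value 0.71). Il2rb in null replicate 4, at 5.55 TPM, lay below the next null value of 7.98 TPM, with a ratio of 0.822. Ccr3 in null replicate 1, at 5.45 TPM, lay below the next null value of 12.1 TPM, with a ratio of 0.889.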

How the results depend on the processing

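Of 188 estimates for the 10 genes under 19 alternatives, 161 kept their direction and 27 reversed. None passed an adjusted p of 0.05 with limma, the smallest being 0.448. Reversed estimates were Cd8a at 0.0056 (pseudocount 0.1), 0.016 (median ratio scaling), 0.092 (quantile normalization) and 0.043 (rescaled without haemoglobin genes), Cd3g at 0.0028, 0.023 and 0.030 under the latter 3, and Cd3d at 0.00017 without haemoglobin genes. Leaving out 1 library gave ranges of -0.23 to 0.021 for Cd3d, -0.17 to 0.11 for Cd3g, -0.14 to 0.11 for Cd8a, -0.25 to 0.023 for Nkg7, -0.62 to 0.041 for Ccl5, -0.076 to 0.32 for Gzma and -0.40 to 0.039 for Klrd1. Without a reversal the ranges were -0.35 to -0.020 for Cd3e, 0.043 to 0.39 for Cd4 and 0.044 to 0.24 for Il2rb. The cause was not tested.

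Estimates above 0 numbered 3 of 10, and 5, 5 and 6 under median ratio, quantile and haemoglobin-free scaling, 8 without wild-type replicate 1, 6 without wild-type replicate 2 and 5 without null replicate 4. Over all genes, unadjusted calls were 592 higher and 1011 lower, against 875 and 888, 884 and 929, and 1216 and 577 under those scalings. Genes past the adjusted threshold numbered 0, and 0 to 1 on leaving out a library (1 without wild-type replicate 3 or 4 or null replicate 1, and none of the 10 genes). Correlated pairs numbered 13, against 6 without haemoglobin genes, 4 by Spearman's rho and 2 without wild-type replicate 1. Other lymphocyte genes with an unadjusted p under 0.05 numbered 5 of 58 tested, against 2 of 27 with a filter of 5 TPM, where fewer genes were tested. That filter also removed Cd3e and Cd8a. With the replicate number as a block 0 genes passed and 1168 had an unadjusted p under 0.05, against 1603, although same-numbered deviations correlated between -0.144 and 0.0564 and no library correlated best with its own number. Depth is unknown, so the precision of low genes such as Cd8a cannot be stated.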
